A study of Mus musculus with 21 samples.

Results

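Gas5 and the Snhg genes are host genes of small nucleolar RNAs (snoRNAs), and 9 of them were followed through RNA-Seq tables of lincRNA knockout mice: Gas5, Snhg1, Snhg3, Snhg5, Snhg6, Snhg7, Snhg8, Snhg11 and Snhg12. They were found by gene symbol, and 7 of the 9 matched a row, 6 in each table and 5 in every table. Snhg6 was matched in the linc-Brn1b table only and Snhg3 in the Peril and Fendrr tables only, while Snhg5 and Snhg8 were not analysed here. Rows with a symbol numbered 40725 for linc-Brn1b and 42746 for each of the other strains. The set was chosen by the values of Gas5 in the linc-Brn1b E13.5 telencephalon, where Gas5 had the lowest knockout minus wild-type difference among 13101 genes at 1 FPKM or more in WT and in KO. That comparison is therefore given as a description, and the other members were taken by their names.

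A snoRNA host gene is transcribed and spliced like a messenger RNA gene, and its snoRNAs are released from the excised introns. Box C/D snoRNAs guide the 2′-O-methylation of ribosomal RNA and box H/ACA snoRNAs guide its pseudouridylation. The spliced exons of Gas5, growth arrest-specific 5, hold no long reading frame, its transcript begins with a pyrimidine tract like those of ribosomal protein mRNAs, and its spliced RNA is known to be degraded by nonsense-mediated decay while it is translated. mRNA-Seq libraries measure the spliced host RNA and not the mature snoRNAs.

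The study sequenced 21 libraries in 10 groups, wild type (WT) and homozygous knockout (KO) for each of 3 strains. The linc-Brn1b strain was sampled at 3 ages, with telencephalon taken from embryos (E13.5, E15.5) and the whole brain from pups (P7), the Peril strain as E18.5 brain and the Fendrr strain as E14.5 lung. The sample labels call the Peril strain linc-Sox2 and the Fendrr strain linc-Foxf1a. Each group had 2 libraries, except the linc-Brn1b KO group at E15.5, for which the labels list 3. In each KO allele the lincRNA locus was replaced by a lacZ reporter cassette that also carries a LoxP-flanked neomycin resistance gene, in hybrid embryonic stem cells of 129S6SvEv and C57BL/6N origin, and the mice were crossed to C57BL/6J. WT animals are described as littermates in every comparison except E15.5, for which the sources used here do not say. Expression is in FPKM, the number of sequenced fragments scaled to transcript length and library size, given as 1 pooled value per group. No difference below therefore has a replicate error or a p-value, and the number of reads behind a value is unknown.

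Differences are KO minus WT in log2(FPKM + 1), which understates the change of low genes. A gene was tested when the mean of its 2 groups was at least 1 FPKM, and it was called lower or higher when the difference reached 0.5. Entries at the deleted loci were near or at 0 in linc-Brn1b and Fendrr KO, with AK011913 over linc-Brn1b at 8.71 FPKM in WT and 0.0267 in KO at E13.5, and linc-Cox4nb-4 over Fendrr at 38.4 in WT and 0.045 in KO. The entry at the Peril locus, linc-Atp11b-4, was 0.0109 FPKM in WT and 4.65 in KO, a direction opposite to that of the other strains. Whether this entry lies within the deleted stretch was not tested, and neither was an exchange of the labels of this strain. Directions in the Peril brain follow the libraries labelled KO. Every difference there, that of Gas5 included, would change sign if the labels were exchanged. The Y-linked Ddx3y showed that the sexes of the groups differed. It was 13.6 FPKM in WT and listed at 0 in KO at E13.5 and likewise 10.6 and 0 in lung, but under 0.1 FPKM in WT and 4.98, 7.12 and 6.86 FPKM in KO at E15.5, P7 and E18.5. Of 6 telencephalon markers, all had at least 1 FPKM in 1 or both groups of every brain comparison and none did in lung, where all 6 lung markers were tested.

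The annotation of the files' build (mm9) places Gas5 on chromosome 1 from 162964553 to 162968670 on the plus strand, the chromosome that also carries linc-Brn1b. The gene spans 4118 bases, of which the transcript with the most exons uses 502 in 12 exons, and 9 snoRNAs lie in its introns, 60 to 84 bases long and 669 bases in all. Of 304 genes with an annotated intronic snoRNA, 1 had more, Rian with 12. The letters TGATGA within the first 25 bases and CTGA within the last 15, which are the core letters of box C and box D, were found together in 7 of the 9 Gas5 snoRNAs and in 57.0% of the 86 annotated snoRNAs of 60 to 90 bases on chromosomes 1, 2, 3, 4, 9 and 19. Printed below with these letters in capitals are 3 of the 9, to show what the introns of this gene carry, followed by Snora17 of Snhg7 with the ACA near its 3′ end in capitals, as an example of the other class. The sequences are from the mm9 genome, as DNA of the transcribed strand.
SNORD44, Gas5, chr1:162966813-162966872, plus strand: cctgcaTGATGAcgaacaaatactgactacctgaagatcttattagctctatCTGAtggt
SNORD81, Gas5, chr1:162968439-162968514, plus strand: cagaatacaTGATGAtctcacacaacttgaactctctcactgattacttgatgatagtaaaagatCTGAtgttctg
Snord47, Gas5, chr1:162968213-162968289, plus strand: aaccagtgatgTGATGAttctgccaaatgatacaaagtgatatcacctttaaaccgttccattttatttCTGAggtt
Snora17, Snhg7, chr2:26494710-26494841, minus strand: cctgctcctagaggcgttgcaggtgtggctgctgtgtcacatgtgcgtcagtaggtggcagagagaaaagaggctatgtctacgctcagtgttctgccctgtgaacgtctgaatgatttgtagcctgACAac

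The other members differ in the snoRNAs they hold. Snhg1, on chromosome 19 from 8797986 to 8800932 on the plus strand, encloses 8 box C/D snoRNA genes, and 6 of them held both sets of letters. Of the 8, 3 lie in an intron of an annotated Snhg1 transcript. Snhg12, on chromosome 4 from 131864593 to 131866939 on the plus strand, has 4 snoRNAs, 3 of the H/ACA class by name and Snord99. Snhg3 lies close by on the minus strand, from 131903929 to 131909601, and hosts Snora73a and Snora73b. Snhg7, on chromosome 2 from 26492697 to 26495764 on the minus strand, hosts Snora43 and Snora17. Snhg11, on chromosome 2 from 158201374 to 158211881 on the plus strand, hosts 2 copies named SNORA71 and is annotated as protein coding, unlike the others. Snhg6 is not annotated by this name in the release used here.

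Gas5 was lower in KO by 0.5 or more at E13.5 and at P7 in the linc-Brn1b strain and in the libraries labelled KO of the Peril brain, and it was not called at E15.5 or in lung. In the linc-Brn1b E13.5 telencephalon it was 105 FPKM in WT and 16.3 in KO, 0.155 of the WT level and a difference of -2.62. At E15.5 it was 136 FPKM in WT and 132 in KO, a difference of -0.04. At P7 it was 59.2 FPKM in WT and 19.3 in KO, 32.6% of WT and a difference of -1.57. In the Peril E18.5 brain it was 41.8 FPKM in WT and 9.57 in the libraries labelled KO, 22.9% of WT and a difference of -2.02. In the Fendrr E14.5 lung it was 277 FPKM in WT and 226 in KO, 81.6% of WT and a difference of -0.29. In a bulk sample, fewer cells that express a gene and less RNA per cell cannot be told apart.

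**Figure D1:**
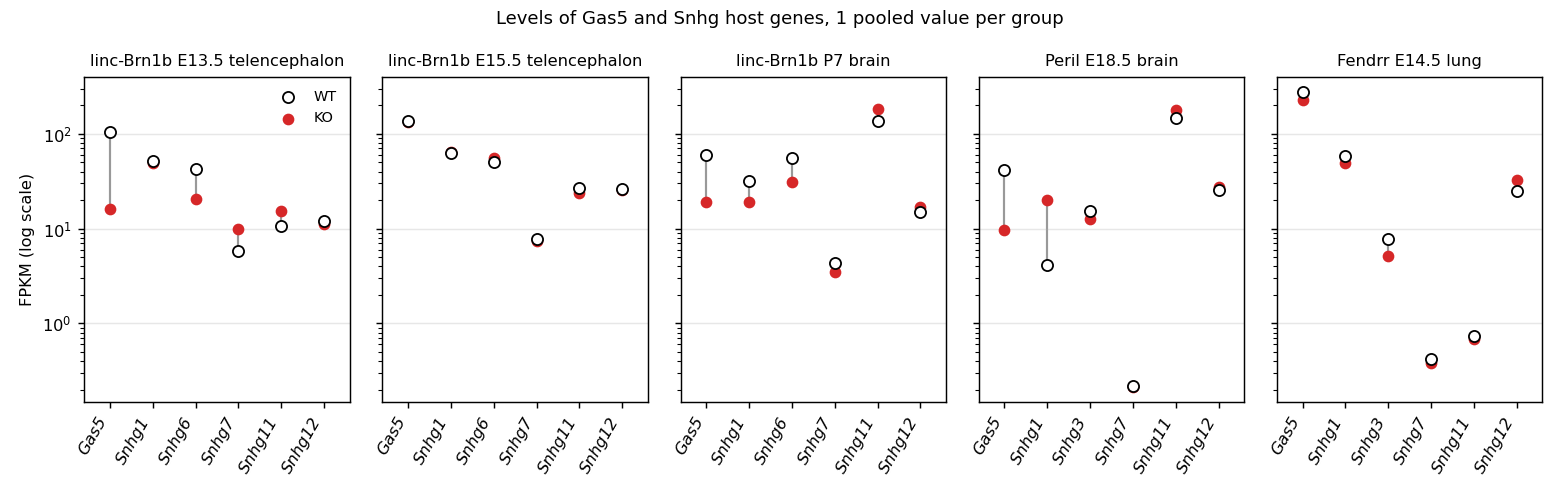
Level in FPKM (log scale) of each matched host gene in WT (open circles) and KO (red circles), 1 pooled value per group, in the 5 comparisons. Gas5 is at 105 FPKM in WT and 16.3 in KO at E13.5 and at 41.8 and 9.57 in the Peril brain, while the 2 circles nearly coincide at E15.5.

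Among all genes tested, Gas5 ranked 11th from the lowest of 13504 at E13.5, and 6 of the genes below it were listed at 0 in KO. It ranked 24th of 14171 at P7 and 9th of 14402 in the Peril brain, with 7 and 3 of the lower genes listed at 0 in KO. At E15.5 it ranked 3075th of 13518 and in lung 611th of 13974, so that 22.7% and 4.37% of genes were lower. The part of the sex difference between the groups in these values was not tested. At E13.5 the differences of all genes ran with transcript length, for which values are given further on.

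**Figure D2:**
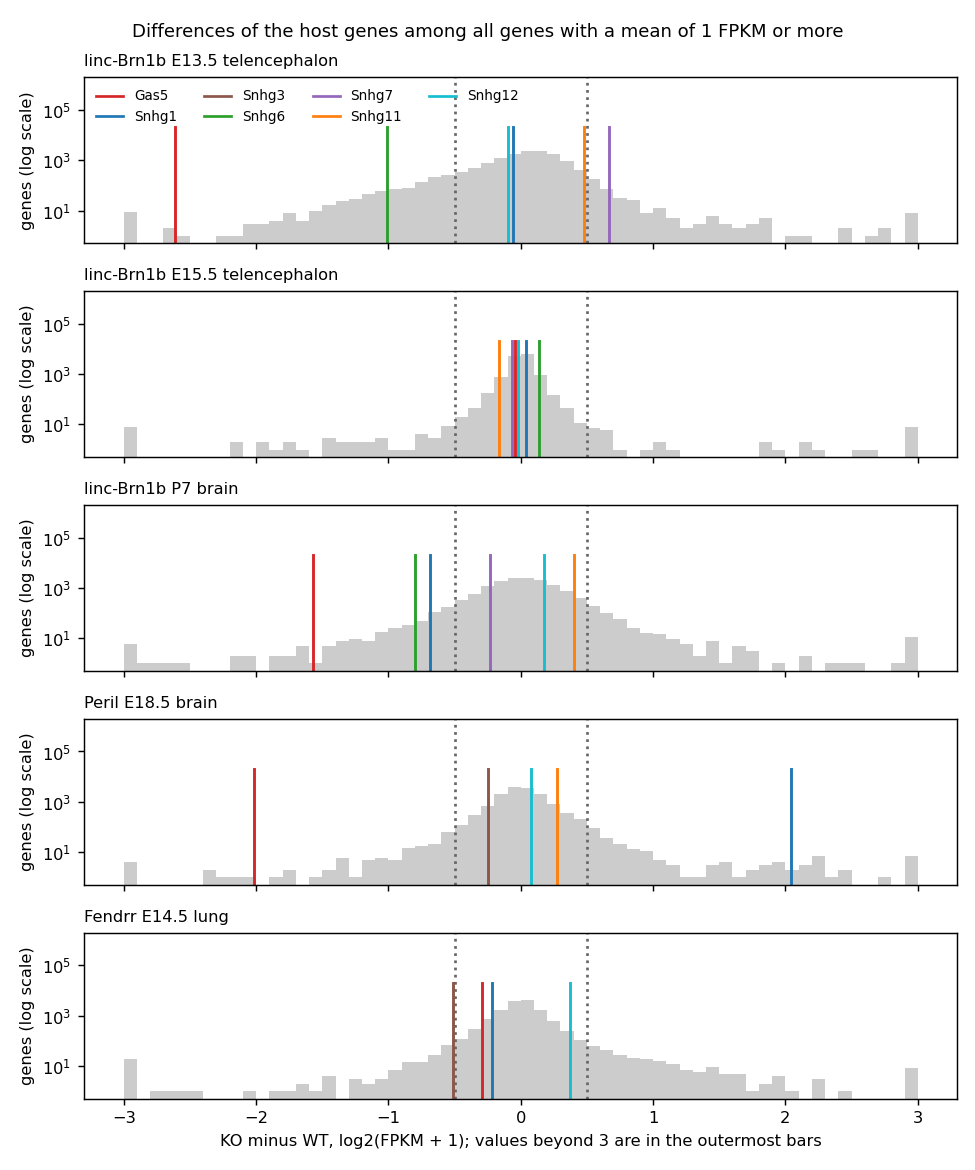
Number of genes (log scale) by KO minus WT difference in log2(FPKM + 1) in grey, with the host genes tested as coloured lines and the limits of -0.5 and 0.5 dotted. Gas5 stands at -2.62, -1.57 and -2.02 in 3 of the 5 comparisons and inside the bulk at E15.5. In lung it stands at -0.29, inside the dotted limits, with 4.37% of genes lower.

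The Gas5 row shares its locus with other entries of the tables, and the counting is not stated to use strand, so their reads may be split or mixed. The entry linc-Zbtb37-BP was 120 FPKM in WT and 32.0 in KO at E13.5, a difference of -1.88. It was 212 and 221 FPKM at E15.5, 69.9 and 39.6 at P7, 92.5 and 29.9 in the Peril brain, and 243 and 223 in lung. Added to Gas5, it gave a difference of -2.20 at E13.5, -1.12 at P7 and -1.74 in the Peril brain, and of 0.02 at E15.5 and -0.21 in lung. The summed locus was thus lower in the same 3 comparisons, at 21.4% of the summed WT level at E13.5. The protein-coding gene at the start of Gas5 was not called. Zbtb37, a zinc finger and BTB domain gene that overlaps the start of Gas5 on the other strand, was 5.08 FPKM in WT and 4.91 in KO at E13.5, 3.29 and 3.58 at P7, and 5.35 and 5.74 in the Peril brain. The row of Snord47, inside Gas5, was listed at 0 in all 10 groups.

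At E13.5 the members split in both directions. Of 6 members tested, 2 were called lower, Gas5 and Snhg6, beside 7.15% of all genes, and 1 higher, Snhg7, beside 2.73%. Their median difference was -0.08 against 0.06 over all genes. Snhg6, host of Snord87, was 42.8 FPKM in WT and 20.7 in KO, a difference of -1.01 that was lower than all but 1.57% of genes. Snhg7 was 5.82 FPKM in WT and 9.84 in KO, a difference of 0.67. Snhg11, a transcript known for its expression in neurons, was 10.7 FPKM in WT and 15.3 in KO, a difference of 0.47 just short of the limit. Snhg1 was 51.6 and 49.5 FPKM and Snhg12 11.95 and 11.1 FPKM, differences of -0.06 and -0.10. Summed over the 6 members, the level was 228 FPKM in WT and 123 in KO, and Gas5 made up 46.02% of it in WT and 13.3% in KO. The erythroid markers summed to 125 FPKM in WT and 47.4 in KO, with 2 of 4 tested lower, and their part in the member values was not tested.

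At E15.5 no member was called, where 0.34% of all genes were lower and 0.252% higher. The differences ran from -0.16 for Snhg11, which was 26.7 FPKM in WT and 23.8 in KO, to 0.14 for Snhg6, which was 50.4 and 55.7 FPKM. Snhg12 was 26.1 FPKM in WT and 25.8 in KO, and Snhg1 was 62.2 and 64.1 FPKM. The summed level of the 6 members was 309 FPKM in both genotypes. The 6 choroid plexus markers summed to 247 FPKM in WT and 5.82 in KO in these libraries, and their part in the member values was not tested.

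At P7, 3 of 6 members were called lower, Gas5, Snhg6 and Snhg1, beside 3.28% of all genes, and none higher, beside 3.34%. The median member difference was -0.46 against 0.01 over all genes. Snhg6 was 55.5 FPKM in WT and 31.4 in KO, a difference of -0.80 with 0.910% of genes lower. Snhg1 was 31.6 FPKM in WT and 19.2 in KO, a difference of -0.69 with 1.33% of genes lower, and linc-Slc3a2-BP of the same locus was 4.74 and 2.26 FPKM. Snhg7 was 4.33 and 3.53 FPKM, a difference of -0.24. Snhg12 and Snhg11 were on the other side, at 14.9 and 17.004 FPKM and at 137 and 182 FPKM, differences of 0.18 and 0.40. Of the 6 brain markers at P7, 1 was lower and none higher. The neuronal genes Snap25, Syn1, Stmn2 and Tubb3 differed by 0.41, 0.37, -0.03 and -0.27, the astrocyte gene Gfap by -0.45 and the myelin gene Mbp by -0.85. The choroid plexus markers summed to 459 FPKM in WT and 314 in KO, with 2 of 6 lower, and the part of tissue makeup in the member values was not tested.

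In the Peril E18.5 brain, 2 of 5 members tested were called, Gas5 lower, beside 1.06% of all genes, and Snhg1 higher, beside 1.54%. The other 3 were not. Snhg1 was 4.11 FPKM in WT and 20.1 in the libraries labelled KO, a difference of 2.04 with 0.146% of genes higher. The tables place Snhg1 at 1 locus with Slc3a2, AK036616 and 2 entries named linc-Slc3a2-AS. Summed with the linc- entries it was 33.1 and 47.6 FPKM, a difference of 0.51 that was still past the limit but 1.44 times the WT level, where the Snhg1 row alone was 4.89 times. Slc3a2, which encodes an amino acid transporter subunit and starts beside Snhg1, was 38.1 and 39.3 FPKM. Snhg3 was 15.2 FPKM in WT and 12.7 in KO, Snhg11 146 and 177, and Snhg12 25.7 and 27.2. Snhg7 was 0.217 and 0.213 FPKM and was not tested, while linc-Fam69b-AS of its locus was 5.57 and 8.32 FPKM. The choroid plexus markers were again lower in sum, at 843 FPKM in WT and 582 in KO, with 1 of 5 tested called, and the erythroid markers were 93.8 and 56.4 FPKM, with 1 of 2 tested lower. Their part in the member values was not tested.

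In the Fendrr E14.5 lung, 4 members were tested, 1 was called lower, beside 1.22% of all genes, and none higher, beside 1.8%. The called member was Snhg3, at 7.75 FPKM in WT and 5.12 in KO, a difference of -0.52 just past the limit. Its locus partner linc-Rcc1 was 52.4 and 64.3 FPKM, and the 2 summed to a difference of 0.20, in the other direction. Gas5 was the highest member and made up 75.1% of the summed member level in WT. Snhg1 was 57.9 FPKM in WT and 49.7 in KO, a difference of -0.22, and Snhg12 was 24.8 and 32.2 FPKM, a difference of 0.37. Snhg11 was 0.741 FPKM in WT and 0.686 in KO, and Snhg7 0.425 and 0.386, so both stayed below the limit of 1 FPKM. The 6 cardiac markers summed to 364 FPKM in WT and 1112 in KO lungs, all 6 higher, and the erythroid markers to 1183 and 658 FPKM, with 2 of 5 lower. The part of both in the member values was not tested.

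The members differed in how they ran over age in the linc-Brn1b strain. From E13.5 to E15.5 in WT telencephalon, 2 of 6 were higher by 0.5 or more and 0 lower, beside 11.5% and 10.4% of all genes. All 6 changes were above 0, with a median of 0.37 against 0.01 over all genes. The largest were Snhg11 with 1.25 and Snhg12 with 1.07, with 1.07% and 1.75% of genes higher, and Gas5 changed by 0.37. From E15.5 telencephalon to P7 whole brain in WT, where age and tissue cannot be told apart, 4 of 6 were lower by 0.5 or more and 1 higher, beside 30.8% and 26.1% of all genes. Snhg11 went from 26.7 to 137 FPKM over this step, 5.13 times the level, while Gas5 went from 136 to 59.2 FPKM, a change of -1.18. Snhg6 had the flattest course in WT, between 42.8 and 55.5 FPKM.

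In KO the Gas5 course was steeper at both steps. It changed by 2.94 from E13.5 to E15.5 and by -2.71 from E15.5 to P7, an 8.36-fold range over the 6 groups that was 2.29-fold within WT. Snhg6 had the same order in KO, from 20.7 to 55.7 and 31.4 FPKM. Snhg12 did not separate by genotype in this way, and its KO values ran 11.1, 25.8 and 17.004 FPKM beside 11.95, 26.1 and 14.9 in WT. These steps reuse the groups of the KO and WT comparisons and are not independent of them.

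**Figure D3:**
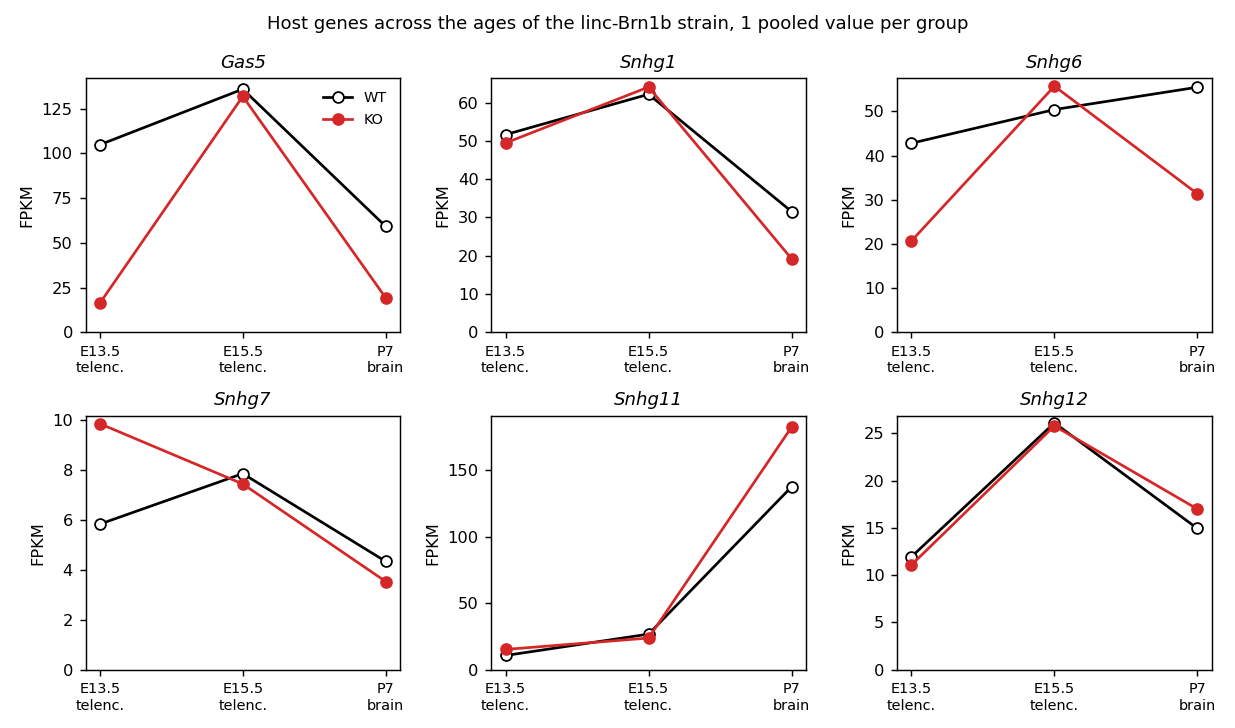
FPKM of 6 host genes in linc-Brn1b WT (open black circles) and KO (red circles) at E13.5, E15.5 and P7, 1 pooled value per group. For Gas5 and Snhg6 the KO line lies below WT at both ends and meets it at E15.5, while the lines of Snhg12 stay together.

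Over these 6 groups, the 5 genes whose log2(FPKM + 1) was most like that of Gas5 were sought among 9429 genes. These had a mean of at least 5 FPKM, and genes with a Gm, RIKEN, linc- or XLOC name were left out. The 5 were Morn2 (Pearson r = 0.99), Rps15a (0.99), Dnpep (0.99), Psma6 (0.99) and Rpl30 (0.99). The 6 points are pooled groups of 1 table, 2 for each age, and no p is given. They include the E13.5 pair by which Gas5 was chosen, and r does not measure the size of a change. At E13.5 Morn2 was 13.7 FPKM in WT and 9.09 in KO, and Dnpep was 36.9 and 29.9 FPKM. Rpl30, a ribosomal protein of the large subunit, was 715 FPKM in WT and 281 in KO at E13.5, 777 and 814 at E15.5, and 449 and 316 at P7. Rps15a, of the small subunit, was 81.3 and 27.9, then 84.4 and 87.7, then 52.3 and 34.6 FPKM. Psma6, a proteasome subunit, was 145 and 91.7 FPKM at E13.5. Among the members, r with Gas5 was 0.86 for Snhg6, 0.65 for Snhg1, 0.59 for Snhg12, 0.17 for Snhg7 and -0.36 for Snhg11, and it was 0.97 for linc-Zbtb37-BP.

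Ribosomal protein genes were lower with Gas5 at E13.5. Of 42 tested, 36 were called lower, beside 7.15% of all genes, and none higher, beside 2.73%, with a median of -1.04. Rps16 differed by -1.79, while Rpl3, Rpl4 and Rpl5 differed by -0.28, -0.14 and -0.20. The median of the list was 0.07 at E15.5, -0.29 at P7, -0.05 in the Peril brain and 0.19 in lung. At P7, 1 of 42 was lower, beside 3.28% of all genes. The Peril brain had a Gas5 difference of -2.02 with no ribosomal protein gene of the list called. Of all genes there, 1.06% were lower and 1.54% higher.

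Annotated exonic length ran with the E13.5 differences over all genes. Genes of 500 to 1000 bases, the class that holds Gas5 with 502, had a median difference of -0.47 there, and 47.7% of 798 were called lower. For genes of 4000 bases or more the median was 0.15 and 0.994% of 3520 were lower. In the class of Gas5 at P7, the Peril brain and lung, 4.28%, 2.33% and 1.35% of genes were lower, with medians of -0.06, -0.05 and 0.09. The part of length or of the ribosomal protein pattern in the Gas5 values was not tested. Lengths were matched for 88.2% to 89.5% of the genes tested.

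**Figure D4:**
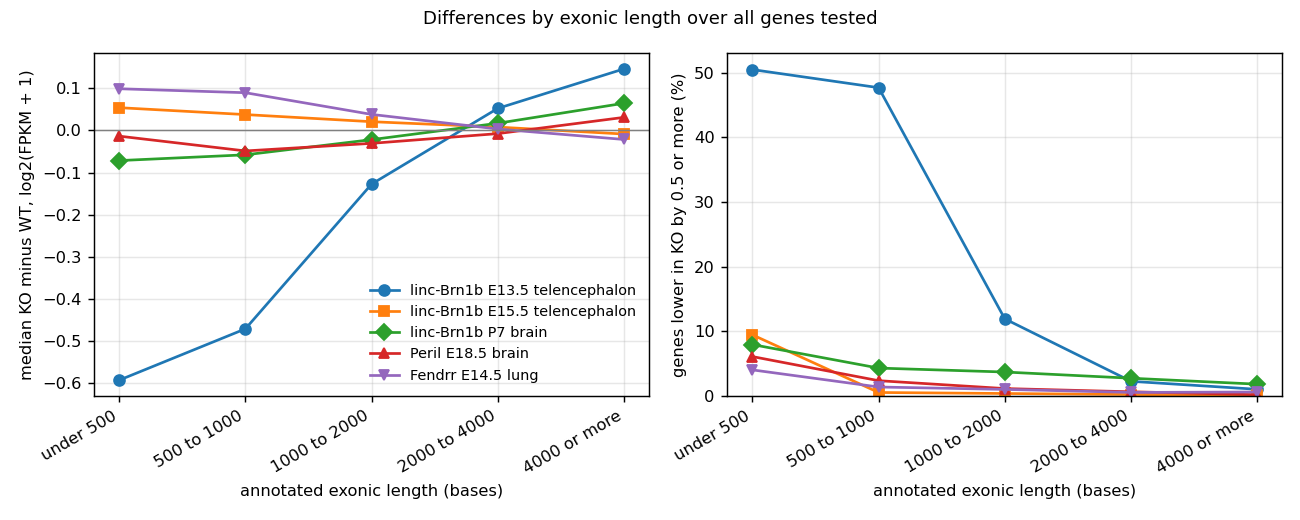
Median KO minus WT difference in log2(FPKM + 1) (left) and percent of genes lower in KO by 0.5 or more (right) by annotated exonic length, over all genes tested, for the 5 comparisons. Only the E13.5 line is steep, from -0.59 below 500 bases to 0.15 at 4000 bases or more.

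Hosts of snoRNAs other than the members were described as 2 lists from the annotation, genes with a snoRNA in an intron of at least 1 transcript on the same strand. Of 267 protein-coding hosts, 233 were tested at E13.5, 31 were lower (13.3%) and 1 was higher, Cdh13. The 30 ribosomal protein genes among them accounted for 23 of the 31, and without them 3.94% of 203 hosts were lower. The share over all genes, with ribosomal protein genes kept, was 7.15%. Hosts and all genes were not matched for length. The lowest 3 were Rps16, Rpl39 and Rps12, at -1.79, -1.60 and -1.59, and the highest 3 were Cdh13, Snhg11 and Dpp10, at 0.57, 0.47 and 0.46. At P7, 9 of 241 protein-coding hosts were lower (3.73%) and 5 higher, beside 3.28% and 3.34% of all genes. They ran from Odc1, Top2a and Cks2 at -1.18, -1.08 and -1.01 to Etl4, Slit3 and Iars at 0.88, 0.71 and 0.65. Odc1, Top2a and Cks2 encode ornithine decarboxylase, a topoisomerase of dividing cells and a cyclin-dependent kinase subunit. None of the tested hosts was called at E15.5. There the lowest 3 were Htr2c, Rnf180 and Snhg11, at -0.50, -0.23 and -0.16, and the highest 3 were Cks2, Lclat1 and Negr1, at 0.15, 0.14 and 0.14. In the Peril brain none of 238 was lower, beside 1.06% of all genes, and 2 were higher, beside 1.54%, among them Prpf39 with 0.50. Taf1d was just short of the limit with 0.45, and the lowest were Cbwd1, Cks2 and Gsr with -0.30, -0.29 and -0.28. In lung none of 228 was called, and the values ran from Ptprb, Pole and Tmem180 at -0.33, -0.27 and -0.26 to Cdh13, AW551984 and Rg9mtd1 at 0.49, 0.36 and 0.31.

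The annotated noncoding hosts were few in the tables, and most were members. Of 6 tested at E13.5, Gas5, Snhg12 and Snhg1 were lowest and Snhg7, Rian and 9430008C03Rik highest, and the last is a symbol of Snhg17. Rian, an imprinted transcript with 12 intronic snoRNAs, was 104 FPKM in WT and 127 in KO at E13.5, 156 and 149 at E15.5, 412 and 408 at P7, 48.1 and 52.7 in the Peril brain and 13.2 and 15.4 in lung. It was not called in any comparison. At E15.5 the 6 ran from Snhg7 at -0.07 to Snhg1 at 0.04. At P7, beside 3.28% of all genes, 3 of 6 were lower, Gas5, Snhg1 and 9430008C03Rik, the last at 4.32 and 2.72 FPKM. In the Peril brain, where 1.06% of all genes were lower and 1.54% higher, 2 of 8 were lower and 1 higher. The lower were Gas5 and Snhg9, the latter at 4.92 and 1.28 FPKM, and Snhg1 was the 1 called higher. In lung, beside 1.22% of all genes, 1 of 9 was lower, Snhg3, followed by 1110038B12Rik at -0.38 and Gas5. With the members left out, 1 of 2 was lower at P7, 1 of 4 in the Peril brain and 0 of 5 in lung. The hand-written list of other noncoding hosts added Zfas1, a host of box C/D snoRNAs whose row is 1500012F01Rik. It was 28.5 and 25.7 FPKM at E13.5, 22.0 and 17.9 at P7 and 31.4 and 33.6 in the Peril brain. It also added Meg3, an imprinted lincRNA beside Rian, called higher at E13.5 with 116 and 175 FPKM. Of that list 1 of 3 tested was called at E13.5, where 2.73% of all genes were higher, and none of 3 at E15.5, P7 or in lung. In the Peril brain 1 of 6 was lower and 1 higher, beside the shares given above. They were Snhg9 and Snhg10, the latter at 0.781 and 2.35 FPKM.

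Genes of snoRNA-binding and assembly proteins were called at E13.5, where 7.15% of all genes were lower, and in no other comparison. Of the 4 box C/D core genes, only Nhp2l1, which encodes a protein that binds the snoRNA directly, was lower at E13.5, at 104 FPKM in WT and 67.8 in KO, and Fbl, the methyltransferase fibrillarin, was 113 and 82.8. The other core proteins Nop56 and Nop58 differed by 0.26 and 0.19. Of the 4 H/ACA core genes, Nhp2 and Nop10 were lower, with -0.84 and -0.85, and Dkc1, the pseudouridine synthase dyskerin, was 32.9 and 33.2 FPKM. Of 9 snoRNP assembly genes 2 were lower, Znhit3 and Pih1d1, with -0.68 and -0.54. In the other 4 comparisons none of these genes was called.

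Pathways that Gas5 is known to be linked with were described in the same way, and at E13.5 their counts stand beside the same 7.15% of all genes lower. Of 12 tested factors of nonsense-mediated decay and the exon junction complex, 1 was lower at E13.5, Magoh, with 109 FPKM in WT and 57.8 in KO, and the median was 0.18. The helicase Upf1 was 25.4 and 25.3 FPKM at E13.5, 9.48 and 11.8 at P7 and 15.9 and 14.96 in the Peril brain, and no factor of this list was called in the other 4 comparisons. Of 11 mTOR pathway genes, 1 was lower at E13.5, the translation repressor Eif4ebp1, at 6.12 and 3.79 FPKM, and none in the other comparisons. None of the genes tested in the list of the glucocorticoid receptor Nr3c1 and its responsive genes, 10 to 12 in number, was called in any comparison, and Nr3c1 itself differed by -0.04 at E13.5, 0.15 at P7 and -0.20 in the Peril brain. Of 14 translation factors and other genes with a terminal oligopyrimidine tract, 3 were lower at E13.5, Eef1b2, Tpt1 and Rack1, with -0.94, -0.71 and -0.65. At E15.5 the 1 called was Eef1a1, which is listed at 0 in KO and 4664 FPKM in WT, and none of the 14 was called at P7, in the Peril brain or in lung.

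**Figure D5:**
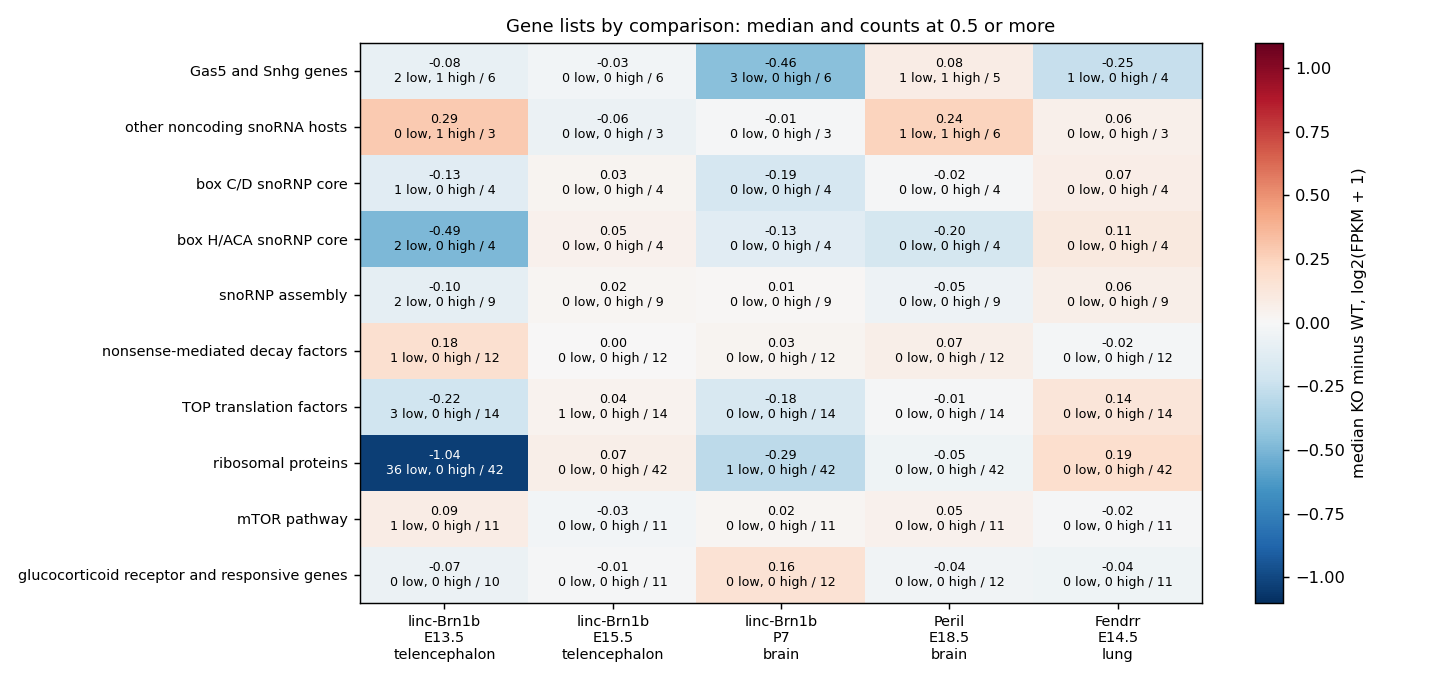
Median KO minus WT difference in log2(FPKM + 1) by colour for 10 gene lists in the 5 comparisons, with the numbers of genes lower and higher by 0.5 or more of those tested. The ribosomal proteins at E13.5 have the lowest median, -1.04, and the Gas5 and Snhg genes have -0.46 at P7.

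The start of the Gas5 transcript was compared with other genes, since a pyrimidine tract at the start is shared by ribosomal protein mRNAs and some snoRNA hosts. In the RefSeq promoter table (GRCm38.p6), a C at the annotated start followed by 3 or more C or T was found for 4.49% of 27025 symbols, for 8 of 32 ribosomal protein genes and for 3 of the 8 members in the table, Gas5, Snhg7 and Snhg8. The windows below run from 15 bases before the start to 15 from it, with the pyrimidine run at the start in capitals. They show Gas5, then Snhg7 and then Rps15a, the ribosomal protein gene most like Gas5. Snhg7 was called higher at E13.5, with a difference of 0.67, and was not called at E15.5 or P7. In the Peril brain and in lung it was below 1 FPKM and not tested.
Gas5, chr1:161035151-161035180, plus strand: agccgccatctcagcCTTTCggagctgtgc
Snhg7, chr2:26640230-26640259, minus strand: gtggagatgctcggcCTCTCggcagccatg
Rps15a, chr7:118116133-118116162, minus strand: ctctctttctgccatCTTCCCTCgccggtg
Gas5 has a further annotated start without such a run. At E13.5, 9.42% of 382 tested genes with such a run were lower and 7.08% of 8265 others, with medians of 0.01 and 0.05. With the Rpl and Rps genes left out of the first set only, 6.23% of 369 were lower. The rule found a run for only 8 of 32 ribosomal protein genes, so the others include genes known for such tracts. These shares therefore cannot tell how genes with a true tract differ from the rest. At P7 the shares were 3.97% and 2.72%, and in the Peril brain 0.744% and 0.742%.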

How the data were processed

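RNA-Seq was analysed from 3 deposited tables. The authors mapped paired-end reads with TopHat2 on the mouse build mm9, and Cufflinks 2.0.2, both named in the submitters' processing notes, served for assembly. The deposited FPKM values are Cuffdiff estimates, with the libraries of a group pooled into 1 value, and a value of 0 can be a failed estimate. The tables also hold the authors' own fold changes, test statistics, p-values and q-values, which were not used. There were 0 columns of values per library, so depth, replicate spread and tests were not available.

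Where a symbol had several rows, the row with the highest mean was used, and rows without a symbol were left out. Differences were taken within a table, with a pseudocount of 1 FPKM, a minimum mean of 1 FPKM and a limit of 0.5. Tables were normalized separately, so levels are not compared between them. Members and gene lists were chosen with earlier results of these data known. Named genes are the 9 members, the genes of the hand-written lists, and the 3 lowest and 3 highest annotated snoRNA hosts per comparison. Also named are the 5 genes most like Gas5 by Pearson r over the 6 linc-Brn1b groups, with Gm, RIKEN, linc- and XLOC names left out. Some genes that this rule names are not reported here. Rows at the members' loci, Y-linked genes and entries at the deleted loci were added after their values were seen. Exonic lengths, gene positions and snoRNAs came from the GENCODE vM1 annotation of mm9, and start sequences from RefSeq (GRCm38.p6). Alternatives were a pseudocount of 0.1, centring on the median, summed rows, minimum means of 5 and none, and limits of 0.25 and 1. Python 3.11.15, pandas 2.3.3, NumPy 2.4.6 and matplotlib 3.10.9 were used, and the calls and the likeness were tested on simulated data.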

Additional observations from a re-analysis of the deposited data

How the results depend on the processing

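Of 154 values under 8 alternatives, 140 stayed within 0.25 in log2(FPKM + 1), or within 1.5 times for counts, and no difference of 0.5 or more among them changed sign. Part of this count says little, since summing the rows of a symbol gave the main value for every result. The Gas5 difference moved only in the sum with linc- entries of its locus, an alternative chosen after seeing the data, to -2.20 at E13.5, -1.12 at P7 and -1.74 in the Peril brain. The same sum, with 5 members tested in lung, moved the lung median from -0.25 to 0.0148 and its count of lower members to 0. It also turned the sign of the small E13.5 median, from -0.08 to 0.09, and of the E15.5 Gas5 difference, from -0.04 to 0.02. Counts of members moved with the limit. With 0.25, 2 were higher at E13.5, 1 at P7, 2 in the Peril brain and 1 in lung, and 2 were lower in lung. With 1, the counts were 0 higher at E13.5, 1 lower at P7 and 0 lower in lung. A pseudocount of 0.1 gave 2 higher at E13.5, where Snhg11 passed the limit. Medians over age kept their sign under every alternative run for them. Leaving out each replicate was not run and depth could not be judged, since values per library were not used here. No paired analysis was possible because the tables give 1 value per group.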

Other observations

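Rows named for snoRNAs at the members' loci were mostly at 0, with 49 of 72 group values listed at 0. The highest was Snora44 of Snhg12, at 48.04 FPKM in WT and 11.8 in KO at E15.5, while it was listed at 0 at E13.5 in both genotypes and in WT at P7. Snord22 of Snhg1 was 3.803 FPKM in WT and 31.6 in KO at E13.5, where Snhg1 itself was 51.6 and 49.5 FPKM.

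Of the genes tested, 17 at E13.5, 19 at E15.5, 14 at P7, 11 in the Peril brain and 28 in lung were listed at 0 in 1 group. Eef1a1 was among those at E15.5, listed at 0 in KO beside values of 1995 to 4664 FPKM in the other 5 linc-Brn1b groups. No member was listed at 0 in any group.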
